A study of Anopheles gambiae with 3 samples.

Results

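The regions described here were 652 autosomal clusters of Anopheles gambiae that carried both a coding and an untranslated probe set on the same array. A probe set is a group of short probes whose signals are combined into a single intensity. The mosquito probe set IDs begin with Ag. and name a chromosome arm, a cluster number and, for most, the mark CDS (taken as coding sequence) or UTR (taken as untranslated region). A cluster was taken when its arm was 2L, 2R, 3L or 3R and its number occurred with at least 1 CDS and at least 1 UTR probe set, a choice that used the IDs and no intensity. The 652 were 5.53% of the 11799 autosomal clusters and held 730 CDS, 683 UTR and 52 unmarked probe sets out of 16884 mosquito probe sets. The IDs carry no gene names, and 0 of them matched the 15165 genes of the reference table, so clusters are given by ID.

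The study profiled adult females of the pink-eye strain, each sample prepared from whole bodies, with Affymetrix arrays. All 3 samples had the same treatment. Females took mouse blood when 4 days old, were offered blood again 48 h later within the same gonotrophic cycle (the interval from blood meal to egg laying), and were collected 24 h after the later meal. Each sample was a pool of 5 females, and no control group was analysed here. In a whole-body pool, fewer cells of a type and less RNA per cell cannot be told apart.

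A messenger RNA consists of a coding sequence, which is translated into protein, flanked by untranslated regions that hold signals for translation, stability and location of the message. Both parts belong to the same molecule, so an array that reads each part of a transcript separately gives a pair of readings for it. Here pairs were matched on arm and cluster number only, so they are not shown to come from 1 transcript. Readings of 1 transcript can still differ. Probe sets differ in how well their probes bind, transcripts can end at different sites, and copying of RNA from the poly(A) tail, used for labelling here, favours the 3' part. The sources used here do not say whether a UTR mark means the 5' or the 3' region. The letters before the end of an ID are Affymetrix's own: a set with a shares its probes among transcripts of 1 gene, a set with s among transcripts of several genes, and a set with x holds probes that resemble unrelated sequence. Sets without a letter are meant to be specific. The sequences of the probes were not used here.

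The clusters with both marks were bright in both parts. Pools 1, 2 and 3 gave median UTR intensities of 1274, 1319 and 1281. For the CDS probe sets of these clusters the medians were 1167, 1153 and 1162. The CDS probe sets of the other 9926 autosomal clusters with a CDS mark had medians of 300.8, 289.5 and 298.6. In every pool the clusters with both marks lay far above the others, and the spread between pools was small against that distance.

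UTR probe sets stood well above CDS probe sets over the autosomes as a whole, and a distance of about the same size separated CDS probe sets of different clusters, while UTR and CDS of the same clusters lay close together. Over all autosomal probe sets the median UTR level exceeded the median CDS level by 1.997 log2 (1.97, 2.05 and 1.99 in pools 1 to 3, SD 0.04, n = 3 pools). CDS probe sets of clusters with both marks exceeded CDS probe sets of other clusters by 1.95 log2, with pool values of 1.96, 1.99 and 1.96 (mean 1.97 ± 0.02, SD, n = 3), a 3.87-fold difference of medians. Between the UTR and the CDS probe sets of the same 652 clusters the difference of medians was 0.15 log2 (mean over pools 0.15 ± 0.04, SD, n = 3). The pool values were 0.13, 0.19 and 0.14. The step from other clusters to clusters with both marks was thus larger in every pool than the step from CDS to UTR within them. Of the 706 autosomal UTR sets 683 lay in clusters with both marks, and of the 11139 CDS sets 10409 lay in other clusters. The distance of 1.997 log2 therefore compares largely the same sets and is not a separate reading.

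Detection followed the same order. Detection meant an intensity above background in each of the 3 pools, with the 95th percentile of the 4502 Plasmodium probe sets on that array as background (57.4, 51.8 and 64.4). Of the 730 CDS probe sets in clusters with both marks, 690 (94.5%) were detected, against 7581 of 10409 (72.8%) in other autosomal clusters. Of the 683 UTR probe sets 657 (96.2%) were detected. All autosomal CDS probe sets together gave 74.3%. The distance of 21.9 percentage points between all UTR and all CDS probe sets therefore shrank to 1.67 points where both parts were read in the same clusters. These shares describe the array's probe sets, which are not replicates, and were not tested.

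Suffix letters differed between these groups, so the distance between clusters was read within each letter. A letter was present on 54.8% of CDS probe sets in clusters with both marks and on 24.1% in other autosomal clusters. Without a letter, CDS probe sets of clusters with both marks had a median intensity of 988.8 (330 sets) and those of other clusters 241.5 (7902 sets), a difference of 2.03 log2 with pool values of 2.06, 2.02 and 1.95. With the letter a the difference was smaller, 1.11 log2 (pool values 1.105, 1.14 and 1.16), and CDS probe sets with that letter had a median intensity of 584.5 in other clusters. With the letter s it was 2.87 log2, from 69 against 705 probe sets (pool values 2.91, 2.81 and 2.85). In each of these 3 letter classes and in each pool, clusters with both marks were the brighter.

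The clusters with both marks also had low cluster numbers, a property the choice of clusters did not use. Their median number was 454 on 2L, 731.5 on 2R, 324 on 3L and 440.5 on 3R, where other clusters had medians of 1588.5, 2072.5, 1183 and 1480.5. Ranked by number on their arm and divided into 10 bins, 634 of the 652 (97.2%) fell in the lower 5 bins, against 47.2% of other clusters. The share of clusters with both marks was 15.5% in bin 1, 17.7% in bin 2, 12.0% in bin 3, 6.02% in bin 4 and 2.46% in bin 5. It was 1.36% in bin 6, and bins 7 to 10 held 2 such clusters in all. The sources used here do not say what the numbers count.

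Within bins 2 to 5 of cluster number the distance to other clusters was small, and in bin 1 it was large. In bin 1 the median CDS intensity was 3462 in clusters with both marks and 506.1 in others, a difference of 2.77 log2 (SD over pools 0.02, n = 3). In bin 2 the medians were 1240 and 1005, a difference of 0.30 log2 (SD 0.04). The differences in bins 3, 4 and 5 were 0.34, 0.12 and 0.34 log2, with SDs over pools of 0.06, 0.02 and 0.10. Bin 6 gave 0.16 log2 from 17 CDS sets of clusters with both marks (SD 0.25). Bins 7 and 8 held 1 such cluster each, with 1 and 2 CDS sets, and differences of 2.50 and 3.95 log2. CDS probe sets of other clusters in bin 1 were detected in 73.5% of cases, fewer than the 97.5% of bin 2, while those of clusters with both marks were detected in 99.5% and 95.4%. Cluster number was examined after the values had been seen, and its part in the distance of 1.95 log2 was not tested.

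Inside a cluster the UTR reading was on balance slightly above the CDS reading. For each cluster the levels (log2 of the mean of the 3 arrays) were averaged over the probe sets of a mark, and the CDS value was subtracted from the UTR value. The median of these differences over the 652 clusters was 0.12 log2. In single pools it was 0.07, 0.12 and 0.12, with a mean of 0.11 ± 0.03 (SD, n = 3). All pools lay above 0, and the exact sign permutation test over 3 pools gave p = 0.25, the smallest it can give. The mean difference was 0.01 log2, closer to 0 than the median, and the largest differences ran the other way.

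Single clusters spread widely around that small median. The middle 50% of differences ran from -0.67 to 0.82 log2. UTR was the higher in 353 clusters (54.1%) and CDS in 299. In 303 clusters UTR was higher in each of the 3 pools and in 237 CDS was, so 540 clusters (82.8%) kept their direction in all pools. The median SD of a cluster's difference over pools was 0.18 log2. Across clusters, the differences of any 2 pools correlated at 0.936 to 0.941 (Pearson's r over 652 clusters that share their arrays, given as a description). The level of UTR correlated with that of CDS at 0.70 over the same clusters (Spearman's rho 0.68).

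Most differences were larger than the spread between pools. A fit with limma across the differences of all 728 clusters with both marks on any arm, adjusted by Benjamini-Hochberg, passed at an adjusted p under 0.05 for 263 autosomal clusters with UTR higher and 206 with CDS higher. The remaining 183 did not pass. Over all arms 40.5% passed with UTR higher and 31.6% with CDS higher, 72.1% in all, and the autosomal share was 71.9%. The test shows that the pair of readings differed by more than the pools did. It does not separate transcript amount from probe binding.

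By median difference, probe sets of the same mark lay no closer together. In 429 autosomal clusters with at least 2 CDS and no UTR probe set, the 2 first by ID differed by a median of 1.12 log2, and 53.1% differed at least 2-fold. For UTR against CDS in clusters with both marks the median size of the difference was 0.76 log2, and 39.0% differed at least 2-fold. By the same limma test 53.6% of the CDS pairs passed, fewer than the 71.9% of clusters with both marks. These CDS pairs were dimmer. Both kinds were also restricted to clusters with a mean level above background. The medians were then 0.90 for 298 CDS pairs and 0.74 for 630 clusters with both marks. This restriction sets a floor and does not match level. Among clusters with both marks, the median size of the difference was larger in the dimmest than in the brightest. Within the clusters with both marks, 70 held at least 2 CDS probe sets, which differed by a median of 0.99 log2, and 22 held at least 2 UTR probe sets, which differed by 0.86 log2. Letters were not matched between the 2 kinds of pair. With a letter on both sets the medians were close, 0.81 log2 for UTR against CDS and 0.89 log2 for 130 CDS pairs. Without letters they were 0.70 log2 and, for 60 CDS pairs, 1.36 log2. The ID field after the cluster number was not matched either. By the form of the IDs, 2 CDS sets of a cluster without letters always differ in that field. A UTR and a CDS set shared it in all 283 clusters without letters. By median size, with level and this field not matched, a UTR and a CDS reading lay no further apart than 2 readings of the same mark. By share passing the limma test this did not hold.

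The small excess of UTR was present in clusters without suffix letters and not in clusters where both marks carried one. In 283 clusters neither mark had a letter. Their median difference was 0.15 log2, with pool values of 0.14, 0.21 and 0.20 (mean 0.18 ± 0.04, SD, n = 3), and UTR was higher in 161 (56.9%). In 324 clusters both marks had a letter. Their median was -0.0049 log2, with pool values of -0.03, 0.05 and 0.05, and UTR was higher in 162 and CDS in 162. The median of the first kind exceeded that of the second in each pool, by 0.17, 0.15 and 0.15 log2 (mean 0.16 ± 0.01, SD, n = 3). That SD covers the pools only. Since different clusters fall in each kind, it does not cover the choice of clusters, and the difference between kinds was not tested over them. The excess also varied with cluster number. The median difference was -0.08 log2 in bin 1 (183 clusters) and 0.20, 0.22, 0.15, 0.15 and 0.04 log2 in bins 2 to 6. The parts of letter and cluster number were not tested.

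By the limma test the split was 121 with UTR higher to 77 with CDS higher among clusters without letters, and 119 to 120 among those with letters on both marks. With both marks carrying a the median was 0.06 log2 in 248 clusters, with pool values of -0.02, 0.08 and 0.10. With both carrying s it was -0.29 log2 in 26 clusters, with pool values of -0.47, -0.26 and -0.29, and CDS was higher in 17. Mixed clusters were few. A letter on CDS alone occurred in 34 clusters, with a median of 0.49 log2 and pool values of 0.49, 0.29 and 0.47. A letter on UTR alone occurred in 11, with a median of 0.20. Of these 11, the 5 with s on UTR and no letter on CDS had a median of 2.46 log2, and UTR was higher in 4.

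The difference varied with the number of probe sets per mark. In 566 clusters with exactly 1 CDS and 1 UTR probe set the median difference was 0.07 log2 (pool values 0.04, 0.07 and 0.09). In the 86 with more than 1 set of a mark it was 0.41 log2 (pool values 0.20, 0.41 and 0.35). In the 279 clusters of the former kind without letters the median was 0.15, and in the 259 with letters on both marks -0.04. With the brightest set of each mark in place of the mean per mark, the median over all 652 clusters was 0.06 log2. In 533 clusters the ID field after the cluster number was the same for both marks, and the median was 0.09 log2. In 119 clusters that field differed between the marks, and the median was 0.16 log2.

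Unmarked probe sets mostly lay below both marks. In 48 clusters with both marks that also held an unmarked probe set, its level was below CDS by a median of 0.87 log2, written as a difference of -0.87, and higher than CDS in 7. Against UTR the median difference was -1.001 log2, with the unmarked set higher in 10. UTR minus CDS in these 48 clusters had a median of 0.06 log2. The unmarked sets were matched on arm and cluster number only and may read another transcript, and 59.6% of them carried a suffix letter. Over the array, the 52 unmarked sets had a median intensity of 827.5, with pool values of 844.9, 858.2 and 707.5, and 1646 unmarked sets of other autosomal clusters had 405.8.

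The median UTR minus CDS difference was 0.20 log2 on 2L (155 clusters; pool values 0.20, 0.31 and 0.27) and 0.14 on 2R (216 clusters; 0.13, 0.12 and 0.12). It was -0.03 on 3L (113 clusters; -0.11, 0.08 and 0.08) and -0.05 on 3R (168 clusters; -0.04, 0.02 and -0.06). Both arms of chromosome 2 were above 0 in every pool, and neither arm of chromosome 3 had the same sign in every pool. UTR was higher in 62.6% of clusters on 2L and 47.0% on 3R. The 65 X clusters with both marks had a median of 0.20, with pool values of 0.23, 0.41 and 0.15. No test of the arms over clusters was made.

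Differences were widest in dim clusters. With the 652 clusters divided by mean level over both marks into 4 classes of 163, the middle 50% of differences spanned 2.06 log2 in the dimmest, at intensities up to 573.4, and 1.36, 1.39 and 1.21 in the next 3. The median SD over pools fell from 0.35 log2 in the dimmest class to 0.12 in the brightest, at intensities of 2495 or more. The median difference stayed between 0.07 and 0.20 in the 4 classes. Clusters without suffix letters made up 55.8% of the dimmest class and 30.1% of the brightest, so letter and level moved together.

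Within clusters, detection was balanced between the marks. The mean level of the UTR mark was above the cut-off in all 3 pools in 626 clusters (96.0%) and that of the CDS mark in 623 (95.6%). Both marks were detected in 605 clusters (92.8%), UTR alone in 21, CDS alone in 18 and neither in 8. Where UTR alone was detected its median intensity was 260.1 and that of CDS 35.6. Where CDS alone was detected its median was 215.5 and that of UTR 67.4. Among clusters without suffix letters UTR alone was detected in 12 and CDS alone in 7, and with letters on both marks in 8 and 11.

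Differences of at least 4-fold leaned towards CDS, though not in every kind of cluster. At least 2-fold differences were found in 134 clusters with UTR higher and 120 with CDS higher. At least 4-fold, the counts were 44 and 60, and at least 16-fold, 2 and 14. The 4-fold counts were 15 and 17 without suffix letters and 23 and 38 with letters on both marks. They were 12 and 14 on 2L, 17 and 13 on 2R, 5 and 15 on 3L and 10 and 18 on 3R. X and unplaced clusters had 10 and 4. In 16 of the 44 and in 11 of the 60 the dimmer mark was not detected, so its level has only the background as a bound. Of the 14 clusters with CDS at least 16-fold higher, 7 had no suffix letter, 6 had letters on both marks, and the UTR mark was detected in 10. The median CDS intensity of the 14 was 4583 and the median UTR intensity 171.1.

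The named clusters were drawn from 259 without suffix letters whose CDS and UTR probe sets were all detected in each pool, 177 of which passed the limma test. Among those that passed, the largest excess of UTR was in Ag.3R.301. Its UTR probe set read 1853, 1565 and 1697 in pools 1 to 3 and its CDS probe set 131.1, 123.2 and 124.1. The lowest UTR reading was far above the highest CDS reading, a mean difference of 3.75 log2 (SE 0.09, limma adjusted p = 0.000138). In Ag.2R.539 the UTR readings were 3163, 3168 and 3095 and the CDS readings 592.4, 394.5 and 547.4. The groups did not overlap, and the mean difference was 2.64 log2 (SE 0.15, limma adjusted p = 0.000373). Its CDS set varied between pools by 20.3% and its UTR set by 1.30% (coefficient of variation).

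Among these 259, the largest excesses of CDS were both on 2R. In Ag.2R.307 the CDS readings were 22757, 21167 and 22469 and the UTR readings 827.9, 970.9 and 858.8. The CDS readings were far above the median CDS level of 1151, while the UTR readings lay below the median UTR level of 1276. The mean difference was -4.65 log2 (SE 0.11, limma adjusted p = 0.000138). In Ag.2R.692 the CDS readings were 2027, 2018 and 1999 and the UTR readings 80.3, 92.5 and 70.9. The UTR readings were above the cut-off of each pool but close to it, and the mean difference was -4.64 log2 (SE 0.11, limma adjusted p = 0.000138). An unmarked probe set of this cluster, with the letter a, lay between them at 844.9, 786.8 and 624.3.

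The cluster nearest the median difference showed no such distance. Ag.3L.166, whose difference among these 259 was nearest the median of the 652, had UTR readings of 1318, 1520 and 1225 and CDS readings of 1348, 1418 and 1011. The ranges overlapped, and the mean difference of 0.12 log2 did not pass (SE 0.10, limma adjusted p = 0.36). In size this difference was not typical. The median size over the 652 clusters, whichever mark was higher, was 0.76 log2, and 177 of these 259 passed the limma test. Ag.3R.167 had the highest mean level among these 259, with UTR at 20106, 18948 and 25030 and CDS at 17247, 16175 and 18019. UTR was higher in each pool by 0.31 log2 on average (SE 0.10, limma adjusted p = 0.046), and without any 1 of the pools it no longer passed (adjusted p from 0.085 to 0.24).

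Among these 259, Ag.3R.819 had the largest SD of the difference over pools. Its UTR readings were 222.9, 271.0 and 210.8, and its CDS readings 82.6, 82.7 and 203.4. UTR was clearly higher in pools 1 and 2, and the marks were nearly equal in pool 3. The mean difference of 1.07 log2 did not pass (SE 0.36, limma adjusted p = 0.056), and without pool 3 it was 1.57 log2 and passed (limma adjusted p = 0.0024). A single array stands behind each of these readings.

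The cluster with the most probe sets was Ag.2R.6, with 10 UTR and 2 CDS sets, all with the letter s except a CDS set with x. The 10 UTR sets had mean intensities from 8123 to 9627, a range of 1.19-fold. The 2 CDS sets read 21965 ± 1204 and 31575 ± 854 (SD, n = 3). Each UTR set was below each CDS set in every pool, and the mean difference was -1.58 log2 (SE 0.09, limma adjusted p = 0.00038). Of the 10 UTR sets 9 were highest in pool 2, as were both CDS sets. Sets with the letter s can share probes, so the 10 are not independent readings.

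The readings of a cluster moved together between pools more in clusters with suffix letters on both marks and in bright clusters. In 605 clusters with both marks detected, the deviations of UTR and CDS over the 3 pools correlated at 0.14 on average, and 17.1% of the variance between pools was shared. Over all 652 clusters these values were 0.13 and 5.49%. In 259 of the 605, those without letters, the mean correlation was 0.05 and the shared variance 13.0%. In 303 with letters on both marks these values were 0.20 and 22.1%. A letter on CDS alone gave 0.10 and 10.3% (32 clusters), and a letter on UTR alone 0.36 and 8.66% (11 clusters). UTR and CDS were highest in the same pool in 92 of the 259 (35.5%) and in 141 of the 303 (46.5%). With only 3 pools, unrelated readings also share their highest pool in part of the clusters, so these shares alone do not show agreement. These are descriptions over 3 arrays that all clusters share, and a mean of correlations over 3 points is a weak measure.

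Level moved with this agreement too. By level in 3 classes of about equal size, the shared variance was 9.37% in the dimmest, 18.4% in the middle and 40.5% in the brightest class. In the brightest class it was 39.5% in 65 clusters without letters and 42.5% in 122 with letters on both marks. In the middle class it was 9.76% in 86 clusters and 24.7% in 101. The parts of level and of shared probes in the agreement were not tested.

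Relative to their own mean over the pools, UTR marks were slightly lower in pool 1 than CDS marks of the same clusters. After each array was centred on the median of its detected mosquito probe sets, the median deviation of the UTR marks was -0.04, 0.02 and 0.03 log2 in pools 1 to 3, and that of the CDS marks -0.01, -0.02 and 0.03. These shifts were small beside the median SD of 0.14 log2 that a mark of either kind showed over the pools. Labelling and RNA quality were not tested as sources of the shift.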

How the data were processed

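Whole-body RNA from 3 pools of 5 females, 1 group, was read on 1 array each. The authors deposited an unlogged intensity for each probe set and array. With 2% trimmed at each end its mean was 500.3 on every array, so the arrays had been scaled alike. Per the submitters' processing notes GCOS 1.1.1 was used, and the sources used here do not give the summarisation method. The smallest intensity was 0.088, no detection calls were used, and the number of arrays limits the precision.

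No value was changed before log2 was taken. Levels were log2 of the mean of the 3 arrays, averaged per mark in each cluster. The difference between UTR and CDS per array was fitted with limma 3.58.1 (R 4.3.3) across all 728 clusters with both marks, with an intercept, eBayes without trend and Benjamini-Hochberg adjustment (threshold 0.05). Differences for these 728 clusters were also simulated with normal noise, the real spreads shuffled over clusters and 200 clusters shifted. There the fit recovered 89% of shifts of 1 log2 and 95% of shifts of 2 log2, and 5.64% of its calls were false. In the real data most clusters passed, many with smaller differences, so these shares do not carry over to the real calls. Other values were computed with Python 3.11.15 and carry no test.

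Named clusters were, among those without suffix letters and with all sets detected, the 2 largest differences each way that passed, the one nearest the median, the brightest and the one with the largest SD over pools, and, among all 652, the one with most probe sets. Alternatives covered background percentile, detection in 2 arrays, pseudocount, normalization, probe set choice, level filter, variance trend and omitted replicates. The members and comparisons were chosen with earlier results of these data known. The p-values measure the spread between these 3 pools, which the labels call biological samples.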

Additional observations from a re-analysis of the deposited data

How the results depend on the processing

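The median UTR minus CDS difference (0.12 log2) stayed above 0 under every alternative run: it was 0.061 with the brightest probe set per mark, 0.084 with the mean of log2 intensities, 0.011 as a mean over clusters, 0.18 in X and unplaced clusters and 0.086 to 0.0996 without a replicate. Without suffix letters (0.15) it was 0.060 as a mean over clusters and 0.14 to 0.18 without a replicate. With a mean of the per-pool differences of at least 1 log2 also required, 132 clusters passed with UTR higher and 121 with CDS higher, and without a replicate 223 to 247 and 183 to 190 passed. Of the 469 clusters that passed, 399 to 421 kept the call and sign without a replicate. The detected share of UTR marks (96.0%) was 97.4% and 93.4% with the 90th and 99th percentile, 98.0% in any 2 arrays and 96.0% to 97.1% without a replicate. That of CDS marks (95.6%) was 93.9% with the 99th percentile, 96.5% in any 2 arrays, 95.7% without sets with s or x and 95.7% to 96.0% without a replicate. At the 99th percentile CDS marks were thus detected slightly more often than UTR marks. The distance of CDS levels to other clusters (1.95 log2) was 1.93 without sets with s or x, 1.79 with log2(intensity + 50), 2.03 without letters and 1.95 to 1.96 without a replicate. Within bins 1 to 6 of cluster number it was 2.77, 0.30, 0.34, 0.12, 0.34 and 0.16, the last from 17 CDS sets. The detected share of CDS sets was 95.1%, 92.9%, 95.2% and 93.3% in clusters with both marks for the 90th and 99th percentile, without sets with s or x and without letters, and 94.9% to 95.1% without a replicate. In other clusters it was 75.6%, 65.5% and 69.8% for the percentiles and without letters, and 74.4% to 75.2% without a replicate. The mean correlation of UTR with CDS deviations over the pools in the 652 clusters (0.13) was 0.035 without letters. Ag.3R.819 passed with log2(intensity + 50) (0.79 log2, limma adjusted p = 0.026). The causes were not tested. The alternatives on cluster number, X and unplaced clusters, CDS sets without letters, pairs of CDS sets, any probe set of a mark and the omission of the dimmest class were chosen after seeing the data. No paired analysis was possible because no other group of samples was there to pair the pools with, and UTR and CDS were compared within each array throughout. Dim probe sets limit single differences: in 27 of the 104 that reached 4-fold, the dimmer mark was not detected.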
